A study of Drosophila melanogaster with 20 samples.

Results

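A total of 480 m6A peaks in the 3′ UTR of transcripts of yw male flies had no counterpart in any of 3 mutant lists, those of Mettl3, Mettl14 and Hakai males. They were chosen by comparing peak lists: a yw male peak annotated to a 3′ UTR was taken when no peak of a mutant list overlapped it by more than 50% of the smaller peak. The yw male list held 20153 peaks, 11403 of them in 3′ UTRs, so the absent peaks were 4.21% of the 3′ UTR peaks. Another 9046 3′ UTR peaks had a counterpart in all 3 mutant lists and 1877 were missing from 1 or 2 of them. The 480 entries named 430 genes, of which 387 had 1 absent peak, 36 had 2 and 7 had 3. Some entries lay on top of each other, and they merged into 461 separate regions.

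N6-methyladenosine (m6A) is a methyl mark on adenosines of mRNA. Mettl3 is the catalytic subunit of the writer complex and Mettl14 its RNA-binding partner. Hakai, which the study calls a potential E3 ubiquitin ligase, belongs to the same complex. Reader proteins of the YTH family, Ythdc1 and Ythdf in flies, bind the mark. In mammals m6A is best known near stop codons and in 3′ UTRs. In MeRIP-seq, fragments of mRNA are precipitated with an antibody to m6A (IP) and sequenced beside untreated fragments (input), and a stretch with more IP than input is called a peak. The antibody can also bring down fragments without the mark.

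The series measured whole adult flies about 1 to 2 days old. The mutant males were Mettl3SK2/Df, in which a Mettl3 allele stands over a deficiency of the region (the files call it Ime4, an older name of Mettl3), Mettl14SK1 and Hakai4, which the study calls HakaiSH4, and the controls were yw males. Females were measured for yw only. Each group had 2 IP and 2 input libraries from RNA preparations that were split into both kinds, 20 libraries in all. Each mutant group is 1 allele, and whether the mutants share the background of the yw strain is not stated. Loss of the writer and strain background therefore cannot be told apart in any comparison with yw. The number of flies per library is not stated. Whole flies mix all tissues, so that fewer cells of a type and less RNA per cell cannot be told apart in the RNA levels below. The peak lists pool the replicates of a group, so no value of a peak has a replicate check.

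RNA of the mutated genes followed the labels. Mettl3 was at 2.43 and 2.10 FPKM (a level scaled to transcript length and to the reads of the library) in Mettl3SK2/Df males and 5.22 and 5.17 FPKM in yw males. Mettl14 was at 1.77 and 2.02 FPKM in Mettl14SK1 males and 4.19 and 4.25 FPKM in yw males, and Hakai at 0.767 and 1.21 FPKM in Hakai4 males and 2.47 and 3.36 FPKM in yw males. The sex of the libraries was seen in the RNA as well. The summed level of 7 ovary and yolk markers was 4720 to 4840 FPKM in females and 6.06 to 108 FPKM in males, and that of 5 testis markers was 3.16 to 3.27 FPKM in females and 1460 to 1980 FPKM in males. Among males the ovary and yolk sum was 6.06 and 8.21 FPKM in yw and 9.45 and 9.24 in Mettl3SK2/Df. It was 41.3 and 108 in Mettl14SK1 and 53.4 and 66.9 in Hakai4, where Yp3 alone was at 33.7 to 65.9 FPKM. Mettl14SK1 replicate 2 also had osk at 2.33 FPKM, against 0.0932 to 0.423 in the other male libraries. The source of this RNA was not tested. No read totals were used here, so how deeply a peak was covered is not known. The gene named for a peak is the gene with the nearest start site in the authors' annotation, so a 3′ UTR can belong to a neighbour.

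The count of 480 was set beside what the same rule gave when each mutant list took the place of the yw list. In the yw male list 480 of 11403 3′ UTR peaks stood alone, which is 4.21% (Wilson 95% interval 3.86 to 4.59%). In the mutant lists, 1054 of 12870 3′ UTR peaks of Mettl3SK2/Df males (8.19%, 7.73 to 8.68%), 481 of 11607 of Mettl14SK1 males (4.14%, 3.80 to 4.52%) and 384 of 11532 of Hakai4 males (3.33%, 3.02 to 3.67%) were found in none of the other 3 male lists. The share in yw males thus lay within the range of the mutant lists. The 5′ UTR gave another order: 1409 of 4620 yw male peaks stood alone there, 30.5% (29.2 to 31.8%), against 14.2% in Mettl3SK2/Df, 4.78% in Mettl14SK1 and 3.31% in Hakai4 males. These intervals cover counting error only. The 3′ UTR peaks that stood alone in the yw male list had a median of 2.03-fold enrichment. Those of Mettl3SK2/Df, Mettl14SK1 and Hakai4 had 1.67, 1.92 and 2.27. Their median exonic length was 120 bases in yw males and 148, 121 and 119 bases in these mutants. The remaining 3′ UTR peaks of the mutant lists were not set beside them. The 5′ UTR peaks that stood alone in yw males had medians of 3.13-fold and 270 bases.

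**Figure D1:**
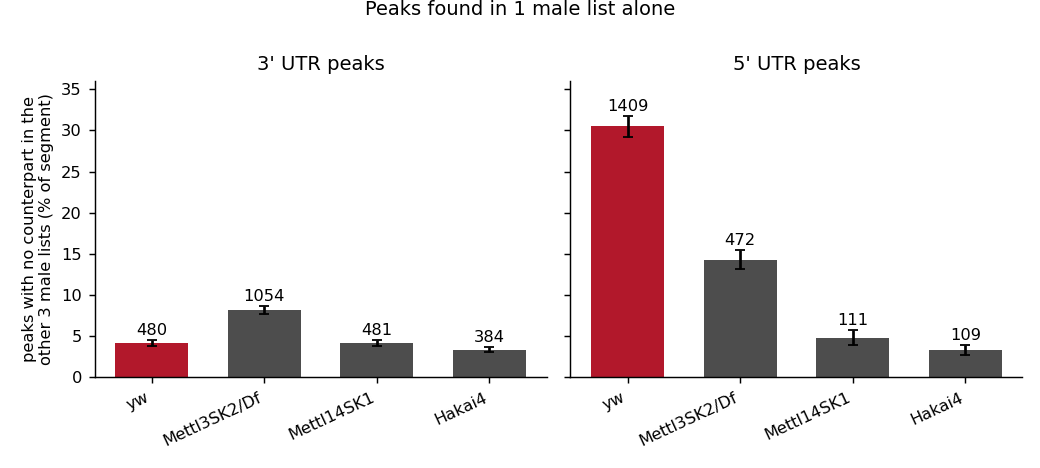
Share of 3′ UTR peaks (left) and 5′ UTR peaks (right) of each male list, in percent, that had no counterpart in the other 3 male lists; bars are shares, whiskers Wilson 95% intervals, and the counts of peaks are written on the bars. The yw bar at the left (480 peaks, 4.21%) stands among the mutant bars for 3′ UTRs, and above all of them for 5′ UTRs (1409 peaks, 30.5%).

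Most absent peaks were short and weak. The values of this paragraph come from the same lists as the rule and are a description only. Fold enrichment (IP over input) ran from 1.08 to 41.4 with a median of 2.03, against a median of 3.37 for the 3′ UTR peaks found in all 3 mutants. The median exonic length was 120 bases against 241 bases, and 463 of 480 absent peaks (96.5%) were a single block of exon. The FDR of the peak caller was at most 0.01 in 265 absent peaks (55.2%) and in 8842 of 9046 peaks found in all mutants (97.7%). The median log10 FDR was -2.32 for absent peaks and -37.3 for the peaks found in all mutants. An enrichment of 5-fold or more was reached by 71 absent peaks (14.8%) and by 2004 peaks found in all mutants (22.2%).

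Absence by this rule did not always mean an empty stretch in the mutants. Of the 480 peaks, 395 shared no base with a peak of any mutant list and 85 overlapped at least 1 mutant peak by up to 50% of the smaller peak. For 324 the nearest peak was more than 100 bases away in every mutant list, and for 136 more than 1000 bases away. At the threshold the choice turned on few bases. Just inside it were peaks of nod, a kinesin-like gene, and of su(w[a]), a splicing regulator, each overlapping a Mettl14SK1 peak by 50%, and of CG3491, overlapping peaks of Mettl3SK2/Df and of Hakai4 by 50%. Just outside were peaks of olf413 (50.2% with Hakai4), fru (50.3% with Mettl14SK1) and CG10803 (50.3% with Mettl3SK2/Df).

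Where the peaks lay in their genes was not used by the rule. A peak was counted at the gene end when it reached or passed the end that the authors' annotation gives the gene. This held for 115 of the 465 absent peaks whose midpoint was inside the named gene, 24.7% (Wilson 95% interval 21.0 to 28.9%), and for 5504 of 8260 peaks found in all mutants, 66.6% (65.6 to 67.6%). The median distance from the peak to the gene end was 268 bases for absent peaks and 0 bases for the others, and 186 absent peaks (40.0%) but 1393 others (16.9%) ended more than 500 bases before it. The difference was present in each class of length. Among peaks of up to 100 exonic bases the gene end was reached by 19.0% of 195 absent peaks and 43.1% of 413 others, among those of over 100 and up to 200 bases by 29.9% of 184 and 64.9% of 1817, and among those over 200 bases by 26.7% of 86 and 68.8% of 6030. The 5 arms 2L, 2R, 3L, 3R and X gave like shares, from 3.51% of the 3′ UTR peaks of 3R to 4.89% of those of X, with Wilson intervals that overlapped.

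**Figure D2:**
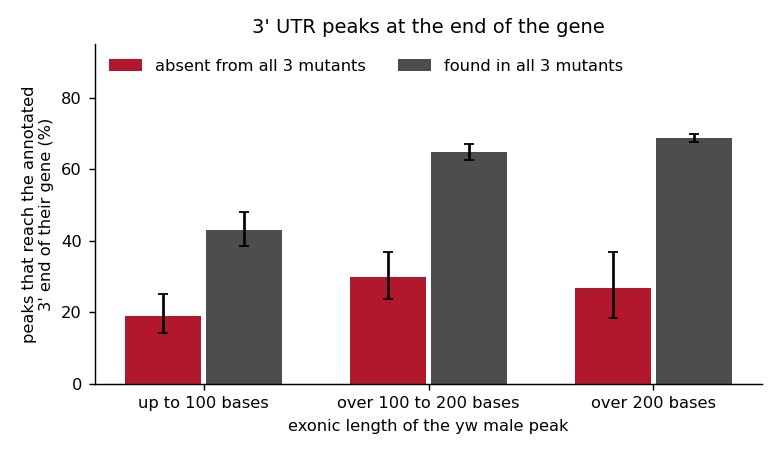
Share of 3′ UTR peaks, in percent, that reached the annotated 3′ end of their gene, by exonic length of the yw male peak; red bars are peaks absent from all 3 mutants and gray bars peaks found in all 3, with Wilson 95% intervals. In each length class the absent peaks were lower, at 19.0, 29.9 and 26.7% against 43.1, 64.9 and 68.8%.

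The yw female list was not used by the rule either, and it tells how many of the absent peaks were called again in other yw flies. A female counterpart, by the same overlap of more than 50%, was found for 158 absent peaks, 32.9% (Wilson 95% interval 28.9 to 37.2%), for 79.4% (78.5 to 80.2%) of the peaks found in all mutants, and for 72.4% of all yw male 3′ UTR peaks. The 5′ UTR peaks that were absent from all 3 mutants had one in 1172 of 1409 cases, 83.2% (81.1 to 85.0%). The share of the absent 3′ UTR peaks moved with the strength of the male peak. It was 23.7% of 215 peaks at an FDR above 0.01, 27.8% of 144 between 0.01 and 1e-05, 52.3% of 86 between 1e-05 and 1e-20, and 62.9% of 35 under 1e-20. The peaks found in all mutants had female counterparts in 58.3, 63.6, 75.6 and 83.3% of these classes, so the absent peaks were lower in each, although the intervals came closest in the last class (46.3 to 76.8% against 82.3 to 84.2%). Peaks were not tested against each other, since those of 1 list share their libraries.

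**Figure D3:**
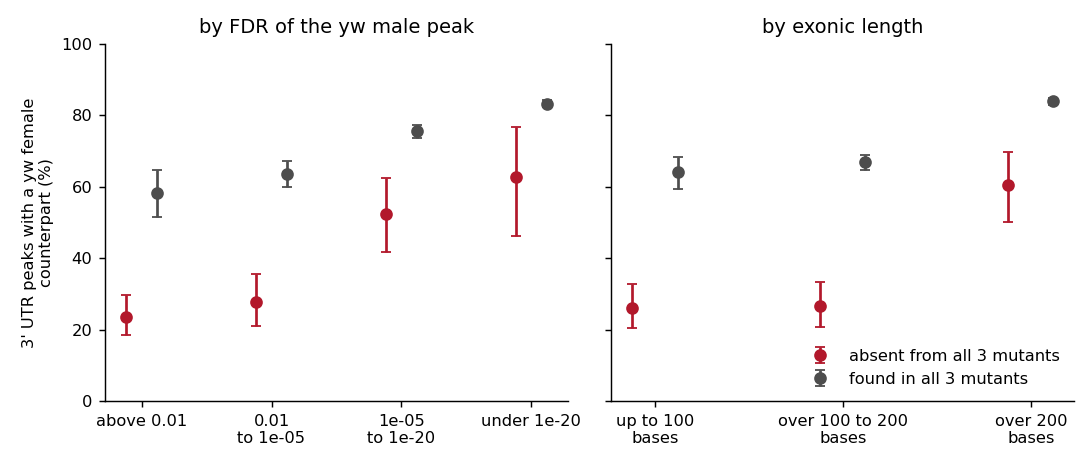
Share of yw male 3′ UTR peaks with a counterpart in the yw female list, in percent, by the FDR of the male peak (left) and by its exonic length (right); points are shares and whiskers Wilson 95% intervals, red for peaks absent from all 3 mutants and gray for peaks found in all 3. Red points stand under gray ones in each class, and rise to 62.9% for the strongest peaks and 60.4% for those over 200 bases.

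Not every female counterpart covered the same exonic bases. Of the 158 matches, 132 were to female peaks in a 3′ UTR, 25 to 5′ UTR peaks and 1 to another exon, and 131 were to a 3′ UTR peak of the same gene. In 14 matches the male peak lay inside the outer span of a spliced female peak whose exonic blocks it did not share by more than 50%. The highest female fold enrichments were of this kind: Aldh, an aldehyde dehydrogenase, at 28.3 (a female peak spanning 30374 bases with 809 exonic ones), CBP at 21.8 (spanning 127340 bases), and rb and CG15912, both at 18.6 through the same female peak (spanning 151382 bases). ND-15, a subunit of mitochondrial complex I, at 12.9, was matched by a female peak of the same 150 bases.

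Where exonic bases were shared, most female values were above the male ones. In the 144 such pairs the median fold enrichment was 2.21 in females and 1.85 in males, and the female value was higher in 90 pairs and lower in 54. In the 7014 such pairs among peaks found in all mutants, the medians were 2.67 in females and 3.44 in males, with the female value higher in 2042 and lower in 4958. The male values of both sets bear on the rule, so this is a description. Among the 144, some pairs used the same female peak and were each counted. Those of CG30080, RpL37a, C3G, ND-15, CG10395, PRL-1, lmgB and lawc were all higher in females. Those of Jon44E and hiw fell on both sides. Repeated use of a female peak thus added more to the count of higher pairs than to that of lower ones. Far above its male value was uex, a gene of the CNNM magnesium transporter family, with 11.9 in females and 3.82 in males. Far below theirs were veil, with 11.1 in females and 41.4 in males, and CG1504, with 2.60 in females and 16.6 in males. The female peak of veil was annotated to a 5′ UTR.

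**Figure D4:**
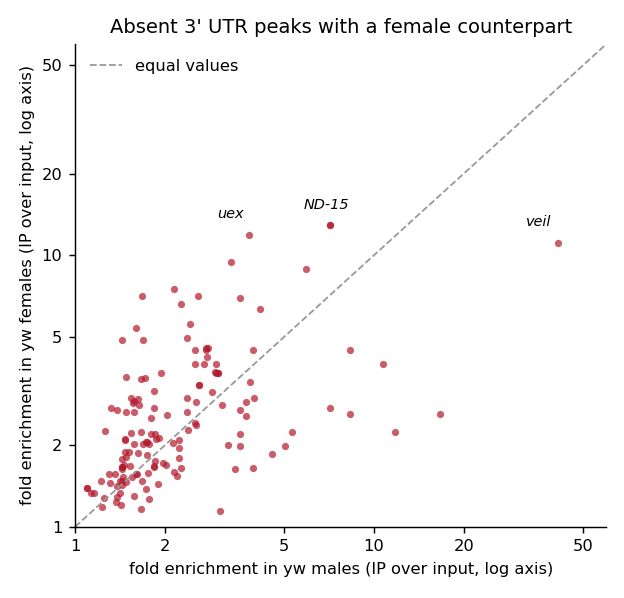
Fold enrichment of IP over input in yw females (vertical) and yw males (horizontal), both on log axes, for the 144 absent 3′ UTR peaks that share exonic bases with a female peak; the dashed line marks equal values. The points lie on both sides of the line, 90 above and 54 below it, with uex at 11.9 against 3.82 and veil at 11.1 against 41.4.

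The peaks with the lowest FDR were in genes with much RNA. There were 35 absent peaks with an FDR under 1e-20, in genes with a median of 20.0 FPKM in yw males, beside 5.23 FPKM for all 430 genes. Their fold enrichment did not pass 4.17 and was under 2 in 21 of them, and 27 lay more than 100 bases from any peak of each mutant list. The lowest FDR belonged to Rala (chrX:3705865-3706164, coordinates of Release 6 of the genome as the lists give them), a Ras-like small GTPase, a peak of 300 bases with a fold enrichment of 2.89 in the yw female counterpart and 3.72 in yw males. The nearest mutant peaks lay 1046 bases away in Mettl3SK2/Df, 1076 in Mettl14SK1 and 2580 in Hakai4. Rala RNA was at 34.6 and 33.7 FPKM in Mettl3SK2/Df, 27.4 and 19.6 in Mettl14SK1, 28.2 and 19.7 in Hakai4 and 31.3 and 21.9 in yw males. These ranges overlapped except for Mettl3SK2/Df, and the limma test gave no call (log2 fold changes 0.37, -0.17 and -0.14, adjusted p 0.385, 0.730 and 0.844).

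Other peaks among those with the lowest FDR were also long. The peak of msn, a kinase upstream of JNK (chr3L:2555896-2556797), had 840 exonic bases, a fold enrichment of 3.99 in yw females and 2.69 in yw males, and its nearest mutant peaks were 120 to 150 bases away. msn RNA was at 30.2 and 30.2 FPKM in Mettl3SK2/Df, 22.7 and 19.5 in Mettl14SK1, 27.8 and 27.5 in Hakai4 and 19.4 and 17.6 in yw males. It was higher in every mutant library than in both yw male libraries, but its log2 fold changes of 0.68, 0.18 and 0.56 stayed under the threshold of 1 (adjusted p 0.0131, 0.360 and 0.0238). uex (chr2R:3900704-3901033) lay 231793 bases from the nearest Mettl3SK2/Df peak, 210 from that of Mettl14SK1 and 269 from that of Hakai4. Ktl (chr3R:20895557-20896245) had fold enrichments of 2.27 in yw females and 2.39 in yw males, and the nearest peaks of the mutants were 806 to 836 bases away. Fer1HCH, the heavy chain of ferritin (chr3R:30386078-30386553), had 2.64 in yw females, in a peak annotated to a 5′ UTR, and 1.48 in yw males.

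Among the genes whose 5′ UTR peaks the study tested by m6A-IP-qPCR, Syx1A, the syntaxin of synaptic vesicle fusion, had an absent 3′ UTR peak (chr3R:24101600-24102229), and none of the m6A writer and reader genes of the list had any. Its fold enrichment was 2.87 in the yw female peak that shared its exonic bases and 2.54 in yw males, and the nearest peaks of the mutants lay 1018 to 1438 bases away. Syx1A RNA was at 6.65 and 6.81 FPKM in Mettl3SK2/Df, 20.3 and 7.82 in Mettl14SK1, 26.0 and 4.53 in Hakai4 and 11.3 and 14.6 in yw males. The Mettl14SK1 and Hakai4 libraries of the gene spanned the yw values, and no contrast passed (adjusted p 0.505, 0.991 and 0.939).

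Some low FDR values came with a small enrichment in very abundant RNA. CG4461 had a fold enrichment of 1.73 at a log10 FDR of -102 and a yw male level of 224 ± 14.2 FPKM (SD, n = 2). Aldh had 1.5 at a log10 FDR of -208 with 314 ± 27.8 FPKM. The Aldh peak overlapped peaks of Mettl3SK2/Df and Hakai4 by 34.1%.

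The highest enrichments stood at the other end of the RNA scale. The 71 absent peaks enriched by 5-fold or more were in 67 genes, whose median level in yw males was 0.628 FPKM, with 37 of the genes under 1 FPKM, and 13 of these peaks had a female counterpart. At an FDR of at most 0.01 the highest values were those of veil (41.4), CG32213 (29.6), Shaw and CG13744 (21.3 each), CG1504 (20.1 and 16.6), CG4598 and CG15553 (17.8 each), CG17270 (16.6) and Zip42C.2 (15.4). Equal values recurred in unrelated genes, as 21.3, 17.8 and 16.6 here and 8.29 in osk, CG4953 and conv. Whether such values rest on few reads was not tested, so their size and order are a description only. Shaw encodes a voltage-gated potassium channel and Zip42C.2 a zinc transporter. Of the 10 peaks listed at this FDR, that of veil and 1 of those of CG1504 had a female counterpart, with fold enrichments of 11.1 and 2.60. The female peak of veil was annotated to a 5′ UTR of the same gene, so the segment of these bases differs between the lists. veil RNA was at 6.16 and 6.64 FPKM in Mettl3SK2/Df, 6.15 and 9.37 in Mettl14SK1, 5.66 and 8.26 in Hakai4 and 7.30 and 5.14 in yw males, and the groups overlapped. The veil peak (chr2R:17479333-17479753) lay 2365 bases before the gene end and 2247 to 2276 bases from the nearest mutant peaks, and overlapped another gene on the opposite strand. Among all absent peaks 71 (14.8%) overlapped a gene on the opposite strand, beside 28.1% of the peaks found in all mutants and 26.4% of all yw male 3′ UTR peaks, and which gene gave the reads was not tested.

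A group of 7 genes had 3 absent peaks. In Hr3, a nuclear receptor of the ecdysone response, the 3 entries overlapped each other within chr2R:10207846-10207936, and in CG30080 within chr2R:15698843-15698963, so each stood for 1 region. The others were Glut1, a glucose transporter, Glut4EF, a DNA-binding protein, Elk, a potassium channel, pip, a sulfotransferase of dorsoventral patterning, and CG1504, with 3 separate regions each. Their fold enrichments were 1.36 to 2.59 in Glut1, 1.13 to 4.34 in Glut4EF, 1.47 to 5.92 in Elk, 1.55 to 4.14 in pip and 10.7 to 20.1 in CG1504. In all 5, the 3′ UTR also held peaks in every mutant list, for Mettl3SK2/Df 1 in CG1504, 2 in Elk, 3 in Glut1 and 5 each in pip and Glut4EF. CG30080 was listed at 0 FPKM in both yw male libraries although it had a peak.

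Many of the genes had other peaks. Of the 430 genes, 206 (47.9%) had some 3′ UTR peak in all 3 mutant lists, beside 81.7% of the 8164 genes with any yw male 3′ UTR peak. A total of 108 had no peak of any kind assigned to them in any mutant list, which held for 133 of the 8164 genes (1.63%). The rule used the mutant lists, so these shares are a description. The 108 include RpS2, CG4461 and CG34040, with RpS2 and CG34040 named after their values were seen. In yw males 219 of the 430 genes had another 3′ UTR peak outside the absent ones. The 5′ UTR of these genes was not used by the rule. It held 273 yw male peaks in 172 genes, of which 83 (30.4%) had no counterpart in any mutant list, next to 30.5% of all yw male 5′ UTR peaks, and 102 (37.4%) had one in all 3, next to 39.2% of all. The shares for these genes were thus near those for all genes.

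The genes with an absent peak had less RNA in yw males than those with a peak found in all mutants, with a median of 5.23 FPKM against 12.3 FPKM, and 78 of 430 (18.1%) were under 1 FPKM against 289 of 6807 (4.25%). The input libraries from which these levels come also served as the denominator in peak calling, so RNA level is not independent of the rule. Genes whose absent peak had a female counterpart had a median of 7.56 FPKM in yw males (144 genes), and those with an absent peak without a counterpart 4.43 FPKM (301 genes). An ovary marker was among them. osk, the pole plasm determinant made in the ovary, had an absent peak with a fold enrichment of 2.61 in yw females and 8.29 in yw males, at a log10 FDR of -1.07 in males, and its RNA was at 174 ± 0.149 FPKM in yw females and 0.118 ± 0.0262 FPKM in yw males (SD, n = 2). dsx, the transcription factor at the end of the sex determination cascade, had 2 absent peaks, 1 of them with a female counterpart (2.64 in females and 1.58 in males) and a level of 6.85 ± 0.194 FPKM in yw females and 6.81 ± 0.604 FPKM in yw males. dsx, like pan, pnt, Syt1, cpx and slo below, was named after its values were seen.

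Gene Ontology terms were given for 394 of the genes, and groups were formed by words in these terms. A gene could fall in several groups or in none. The background for each group was the 7445 genes that had such terms among those with any yw male 3′ UTR peak. Neuronal genes (synapse, axon, dendrite) were 75 of the 394, 19.0% (Wilson 95% interval 15.5 to 23.2%), beside 14.5% of this background. They include Syx1A, the synaptotagmin Syt1, cpx, which encodes complexin, and slo, a calcium-activated potassium channel. Genes of transcription factors were 25 (6.35%, beside 4.03%), among them pan, the TCF of Wnt signalling, and pnt, an ETS factor. The pan peak had fold enrichments of 2.19 in yw females and 1.85 in yw males and lay 5068 to 5098 bases from any mutant peak. That of pnt had 1.63 in yw females and 3.44 in yw males. Ion channel and transport genes were 33 (8.38%, beside 6.02%), proteolysis 26 (6.60%, beside 5.47%), immune 22 (5.58%, beside 3.75%), RNA binding 27 (6.85%, beside 6.89%), cytoskeleton 35 (8.88%, beside 10.3%), kinase or phosphatase 19 (4.82%, beside 6.66%) and ubiquitin 16 (4.06%, beside 5.25%). Mitochondrial genes were 12 (3.05%, 1.75 to 5.25%, beside 7.32%) and spermatogenesis genes 4 (1.02%, 0.396 to 2.58%, beside 2.94%). These shares were not tested.

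RNA of the 430 genes was compared between each mutant and yw males with limma, and 351 passed the filter of a mean of 1 FPKM. Untested genes moved both ways, and 3 are named after their values were seen. CG9287 was at 1.37 FPKM in yw males and 0, 0.0068 and 0.0253 in Mettl3SK2/Df, Mettl14SK1 and Hakai4. CG5770 was at 2.25 against 0.382, 0.661 and 0.636, and CG15553 at 0.387 against 0.369, 0.660 and 2.30. Whether missing RNA left such genes without a mutant peak was not tested. A gene was called at a Benjamini-Hochberg adjusted p under 0.05 and a log2 fold change of 1 or more in either direction. In Mettl3SK2/Df males 9 of the 351 genes were higher (2.56%) and 5 lower (1.42%), beside 2.40 and 1.00% of all 13079 genes tested. In Mettl14SK1 males 10 were higher (2.85%) and 2 lower (0.570%), beside 2.97 and 1.06% of all genes. In Hakai4 males 11 were higher (3.13%) and 4 lower (1.14%), beside 2.18 and 1.45% of all genes. Among the 7674 tested genes with any yw male 3′ UTR peak, 1.32, 1.71 and 1.19% were higher in Mettl3SK2/Df, Mettl14SK1 and Hakai4, and 0.769, 0.769 and 0.925% lower. The higher shares of the 351 genes were thus above those of the genes with a 3′ UTR peak and close to those of all genes in Mettl3SK2/Df and Mettl14SK1, and these differences were not tested. The median log2 fold changes were 0.03, 0.08 and 0.03 for the 351 genes, beside 0.03, 0.11 and 0.03 for all. The Mettl3SK2/Df count of 14 fell to 4 without its replicate 1 and to 7 without its replicate 2. The 3 comparisons share the yw male libraries, and their p-values rest on the spread between 2 libraries a group, pooled over the male groups. This spread may be technical, since the labels do not say that replicates came from separate flies. The 2 libraries of a group correlated at 0.994 in Mettl3SK2/Df, 0.978 in yw, 0.98 in Mettl14SK1 and 0.977 in Hakai4 males. How far the closer Mettl3SK2/Df pair lowered the pooled spread was not tested.

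Called in the same direction in at least 2 mutants were 10 of these genes, 9 higher (2.56%) and 1 lower (0.285%), and 6 were higher in all 3 (1.71%). The shares were 2.00, 0.810 and 0.788% of all genes tested and 1.03, 0.534 and 0.352% of the genes with a yw male 3′ UTR peak. The contrasts share the yw male libraries, so calls in several mutants are not independent of each other. CG3397 had the largest mean change over the 3 mutants. Its RNA was at 14.1 and 15.5 FPKM in Mettl3SK2/Df, 13.0 and 15.96 in Mettl14SK1 and 9.48 and 13.0 in Hakai4, against 0.668 and 0.734 in yw males. All mutant libraries stood above both yw male libraries, with log2 fold changes on the log2(FPKM + 1) scale of 3.21, 3.18 and 2.83 (SE 0.165, adjusted p 0.000235, 0.000160 and 0.000258). In yw females CG3397 was at 0.635 ± 0.154 FPKM (SD, n = 2), near the yw male level. The absent peak of CG3397 had a fold enrichment of 3.11 in yw males, no female counterpart, and lay 1325 bases from the nearest peak of each mutant.

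Jon44E, a Jonah serine protease of the digestive tract, was at 18.2 and 19.6 FPKM in Mettl3SK2/Df, 23.1 and 34.2 in Mettl14SK1 and 11.2 and 18.3 in Hakai4, against 4.24 and 4.29 in yw males. Its log2 fold changes were 1.92, 2.47 and 1.54 (adjusted p 0.00758, 0.00216 and 0.0143), and it had 2 absent peaks (fold enrichments 2.37 and 3.98). The call in Mettl3SK2/Df was lost without either of its own libraries (log2 fold changes 1.97 and 1.87) and that in Hakai4 without either yw male library (1.53 and 1.55). The summed level of 3 midgut enzymes was 360 and 367 FPKM in Mettl3SK2/Df, 407 and 653 in Mettl14SK1 and 329 and 524 in Hakai4, against 287 and 320 in yw males. The enzymes did not move together. Amy-p was at 95.7 and 99.5 FPKM in Mettl3SK2/Df, 128 and 241 in Mettl14SK1 and 54.6 and 101 in Hakai4, against 127 and 140 in yw males, while Amy-d and Mal-A1 were higher in every mutant library than in both yw male libraries. Their part in the Jon44E result was not tested. CG30090, annotated to proteolysis, was at 4.16 and 4.65 FPKM in Mettl3SK2/Df, 6.63 and 7.86 in Mettl14SK1 and 5.90 and 8.86 in Hakai4, against 1.19 and 1.27 in yw males. Its log2 fold changes were 1.28, 1.88 and 1.89 (adjusted p 0.00926, 0.00162 and 0.00169), and the call in Mettl3SK2/Df was lost without replicate 1 or 2 of that group or replicate 2 of yw males (1.34, 1.21 and 1.303).

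Tsp3A, a tetraspanin, was at 4.92 and 5.40 FPKM in Mettl3SK2/Df, 4.48 and 4.59 in Mettl14SK1 and 4.38 and 5.30 in Hakai4, against 1.44 and 1.22 in yw males. The log2 fold changes were 1.40, 1.25 and 1.32 (SE 0.117, adjusted p 0.00136, 0.00149 and 0.00125), and its peak had a fold enrichment of 3.41 in yw females and 3.85 in yw males. CG13905 was at 9.03 and 8.95 FPKM in Mettl3SK2/Df, 57.0 and 62.5 in Mettl14SK1 and 22.7 and 26.5 in Hakai4, against 3.95 and 7.39 in yw males. It rose in Mettl14SK1 and Hakai4 (log2 fold changes 3.24 and 1.99, adjusted p 0.000536 and 0.00409) and did not pass in Mettl3SK2/Df (0.63, adjusted p 0.154), where it was called without yw replicate 2 (1.01).

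AGO1, the Argonaute of the miRNA pathway, was at 29.3 and 29.9 FPKM in Mettl3SK2/Df, 27.7 and 21.7 in Mettl14SK1 and 32.1 and 22.1 in Hakai4, against 13.2 and 7.67 in yw males. The mutant libraries stood above the yw male ones, with log2 fold changes of 1.46, 1.20 and 1.32 (adjusted p 0.0246, 0.0454 and 0.0337). These calls were the least stable of the 6 genes. Without yw replicate 2, the lower of the yw libraries, the log2 fold changes were 1.10, 0.84 and 0.96 and none passed. Over 15 alternatives the call of AGO1 was lost in 3 in Mettl3SK2/Df, 9 in Mettl14SK1 and 8 in Hakai4. With the 4 libraries of a comparison alone the limma adjusted p was 0.0468, 0.108 and 0.115, and with equal medians it was 0.0776 in Mettl14SK1. Its peak had a fold enrichment of 1.27 in yw females and 1.77 in yw males.

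**Figure D5:**
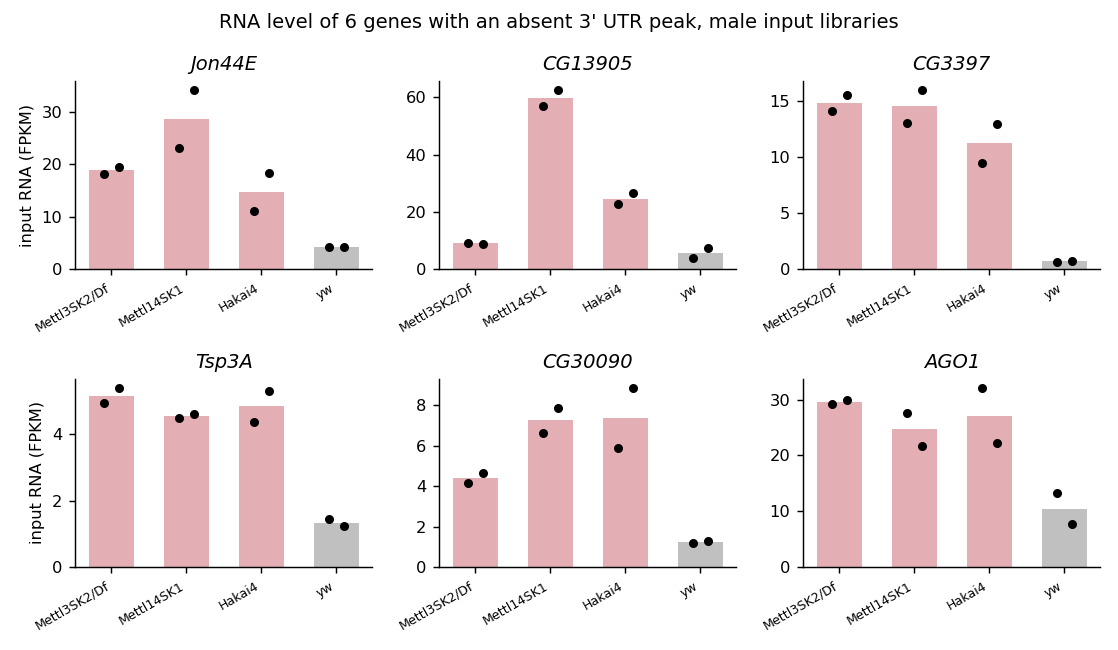
RNA level in FPKM, in the male input libraries, of 6 genes with an absent 3′ UTR peak. They were chosen for calls in the same direction in at least 2 mutants in these libraries. Bars are means of 2 libraries, points the libraries, red for the mutants and gray for yw. Every mutant library stands above both yw libraries for each gene, from 0.668 and 0.734 FPKM in yw for CG3397 to 13.2 and 7.67 FPKM for AGO1. Since the choice used the same values, this separation is a description only.

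Between the sexes 354 of the genes were tested in the yw libraries. Higher in females were 33 (9.32%) and lower 29 (8.19%), beside 9.14 and 22.9% of all 12778 genes tested. The share that was lower in females was thus under the background, and the median log2 fold change was 0.08 for these genes and -0.03 for all. With all libraries set to equal medians, 75 of the genes were higher in females (21.2%) and 22 lower (6.21%), beside 17.8 and 20.9% of all genes tested, and the median of all genes moved to 0.34. In the male comparisons this scaling moved the median of all genes most for Mettl14SK1, from 0.11 to -0.02.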

How the data were processed

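The series holds 20 libraries (10 IP, 10 input), with 2 of each kind per group. Per the methods of the study, the authors cleaned the reads (fastp), aligned them (HISAT2), called peaks with exomePeak from the IP and input libraries of a group together, annotated them with ChIPseeker and estimated RNA with StringTie. The authors deposited 1 peak list per group, with coordinates of genome Release 6. Each deposited list gives a fold enrichment (a ratio of IP over input), a p-value column, and log10 values of the p-value and FDR, which were treated as a score. The authors deposited FPKM per input library for 17276 genes, and the log2 fold changes and p-values of their own comparisons were not used.

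Members and lists were chosen with earlier results of these data known. The rule compares outer peak coordinates on either strand. On 500 simulated peaks it gave all 500 as built. These were single blocks set apart, each with a partner of equal length, so spliced, nested or unequal peaks were not covered. Setting the rule to each mutant list in turn was chosen after seeing the data, as were 3 alternatives: a female peak of the same gene in the 3′ UTR, a female peak sharing exonic blocks, and each region counted once. Exonic length sums the blocks of a peak. Shares carry Wilson 95% intervals, which cover counting error only, and peaks of 1 list are not replicates.

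FPKM are not counts, so log2(FPKM + 1) was fitted with limma 3.58.1 (R 4.3.3, lmFit and eBayes with trend) for genes with a mean of at least 1 FPKM, over the 8 male input libraries in 1 fit and over the 4 yw libraries in another. In a simulation of the Mettl3SK2/Df contrast over 13079 genes, 86 of 100 genes planted at a log2 change of 1.5 and 96 of 100 at 3 were called, with 3 unchanged genes called. The planted genes were taken from the more abundant ones only, and simulated libraries were drawn independently of each other. Recovery among genes with less RNA, or with deviations shared between groups, was therefore not measured. Tables were made with Python 3.11.15, pandas 2.3.3, numpy 2.4.6 and scipy 1.17.1, and figures with matplotlib 3.10.9.

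Named peaks were the 10 with the highest fold enrichment at an FDR of at most 0.01, the 8 with the lowest FDR, those of genes with 3 or more, those nearest the overlap threshold, those in lists of m6A genes and of genes assayed in the study, the 5 highest in the female list, and those of up to 6 genes called the same way in at least 2 mutants. A peak so chosen is not reported here. Alternatives were other overlap rules, peak thresholds, pseudocounts, filters, scalings, a replicate block, fits of 4 libraries and leaving out each library.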

Additional observations from a re-analysis of the deposited data

Results flagged for a closer look

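CG34040, a gene with an absent 3′ UTR peak (chr2R:21832501-21832620, fold enrichment 2.20 in yw males), moved in opposite directions in 2 mutants, and was named after its values were seen. Its RNA was at 67.2 and 67.2 FPKM in Mettl3SK2/Df, 13.6 and 11.1 FPKM in Mettl14SK1 and 26.6 and 28.5 FPKM in Hakai4, against 36.6 and 27.0 FPKM in yw males. Both Mettl3SK2/Df libraries stood above, and both Mettl14SK1 libraries below, the yw male libraries. By limma the log2 fold change was 1.07 in Mettl3SK2/Df (adjusted p = 0.0126) and -1.28 in Mettl14SK1 (adjusted p = 0.00535), and CG34040 did not pass in Hakai4 (-0.19, adjusted p = 0.636). The difference between the mutants was not tested, and the comparisons share the yw male libraries. The call in Mettl3SK2/Df was lost without either of its own libraries (1.07 each) and without yw replicate 2 (0.86), with adjusted p from 0.00703 to 0.107 over the alternatives.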

How the results depend on the processing

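The count of 480 absent peaks was 395 when any overlap counted as shared, 490 by exonic blocks, 522 on the same strand, 476 with each region once, 1400 when at least 50% of both peaks had to overlap, 265 at an FDR of at most 0.01 and 71 at 5-fold or more. The female share of 32.9% was 37.7% with any overlap, 19.5% with 50% of both peaks, 40.4% at the FDR limit, 18.3% at 5-fold or more and 27.3% for a female 3′ UTR peak of the same gene. The median fold enrichment was 8.29 at 5-fold or more. Calls among the genes were 14, 12 and 15 in Mettl3SK2/Df, Mettl14SK1 and Hakai4 and 62 between the sexes. With a mean of at least 5 FPKM they were 7 in Mettl14SK1, 9 in Hakai4 and 40 between the sexes, and with equal medians 97 between the sexes. Leaving out each library gave 4 to 18, 11 to 16, 12 to 18 and 58 to 67. With a replicate block they were 15, 12, 15 and 63. The labels do not say what equal replicate numbers share. Deviations of equal numbers correlated at 0.50, 0.47 and 0.67 among yw, Mettl14SK1 and Hakai4 males and at 0.0147 to 0.0632 between each of these and Mettl3SK2/Df. Over 312 alternative values of named genes, 280 kept call and direction, 30 lost the call and 1 gained it. The exception in direction was CG34040 in Hakai4, -0.19, which was 0.029 without yw male replicate 1 and -0.40 without replicate 2. The cause of these changes was not tested, beyond the fewer peaks or genes that stricter limits leave. The search for sequence motifs was not run. Peak depth is unknown, and each list pools 2 libraries.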
